A study of Mus musculus with 12 samples.

Results

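The splicing factor and hnRNP genes were taken as all protein-coding mouse genes whose symbols begin with Srsf, Hnrnp, Sf3a, Sf3b, Snrp or U2af, which gave 56 of the 21900 protein-coding genes of RefSeq on GRCm38 (mm10). They comprised 11 Srsf, 21 Hnrnp, 9 Sf3a and Sf3b, 12 Snrp and 3 U2af genes. Their histone mark was read in mouse CD8 T cells, as ChIP-seq of H3K79me2, from 12 libraries over 3 treatments, each treatment having 2 biological replicates as immunoprecipitate and as input (6 of each kind). All cells came from male mice labelled CreERT2;DOT1L-flox;OT-I with genotype wt;wt;het, that is wild type at the Cre and the Dot1l alleles with 1 copy of the OT-I T cell receptor transgene. They were activated through CD3 and CD28 and kept until day 8 with 0.1% DMSO as vehicle, with EPZ-5676 or with SGC-0946, both inhibitors of the H3K79 methyltransferase DOT1L. The labels give 10 mM for each inhibitor, a doubtful unit for cell culture. Yeast chromatin with HA-tagged H3 was added to every sample as an external reference.

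The data are 3 lists of broad peaks, 1 per treatment, called here the DMSO, EPZ and SGC lists. Each was read as pooled over its replicates. No spread between replicates and no read depth can be had from them, so no test was made and every difference below is a description of called peaks. A gene without a peak is a gene where none was called, which is not a measured absence of the mark. Peak height is the authors' fold enrichment over background (a ratio averaged along the peak) and is used only inside its own list. Markers fitted the labelled cell type: Cd8a and Cd8b1 held DMSO peaks, as did the general T cell genes Cd3d, Cd3e, Cd3g, Cd2, Cd5 and Lck. Cd3d and Cd3g had the same highest DMSO value, 10.7-fold. Of 23 markers of CD4 T, B, myeloid, NK and non-hematopoietic cells 0 held a DMSO peak.

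Introns are removed by the spliceosome, which is built from small nuclear ribonucleoproteins (snRNPs). Snrp genes encode proteins of these particles, including the Sm ring around most spliceosomal snRNAs. The U2AF heterodimer reads the 3' splice site, and the SF3A and SF3B complexes of the U2 snRNP then hold the branch point. SR proteins (Srsf) bind exonic enhancers and favour exon inclusion, whereas hnRNP proteins coat nascent transcripts and often oppose them. T cells change their splicing on activation, the isoforms of CD45 being the textbook case. H3K79me2 is known as a mark of transcribed genes that lies over the first kilobases of the gene body.

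Peaks in the SGC list were called at 3 members only, Srsf3, Hnrnpa3 and Hnrnpf, and each began close behind an annotated start. The distance was 0.701 kb at Srsf3 and 1.15 kb at Hnrnpa3, each with 1 start in the table. Hnrnpf has 4, and its SGC peak began 8.64 kb after the first but 1.18 kb after another. The promoters of these 3 starts are printed because the SGC peaks follow them, and that of Snrpa as a marked member whose DMSO peak began 0.320 kb past the start and which held no EPZ peak. Each runs from 250 bases before to 50 bases after the start, 5′ to 3′ on the gene's strand, from RefSeq on GRCm38.p6. They are chr17:29032410-29032709 (+) for Srsf3, chr2:75659009-75659308 (+) for Hnrnpa3, chr6:117907554-117907853 (+) for Hnrnpf and chr7:27196222-27196521 (-) for Snrpa. Capitals mark matches on either strand to GGGCGG (the GC box), CCAAT (the box bound by NF-Y), CACGTG (the E-box) and TATAAA, which can overlap.
Srsf3: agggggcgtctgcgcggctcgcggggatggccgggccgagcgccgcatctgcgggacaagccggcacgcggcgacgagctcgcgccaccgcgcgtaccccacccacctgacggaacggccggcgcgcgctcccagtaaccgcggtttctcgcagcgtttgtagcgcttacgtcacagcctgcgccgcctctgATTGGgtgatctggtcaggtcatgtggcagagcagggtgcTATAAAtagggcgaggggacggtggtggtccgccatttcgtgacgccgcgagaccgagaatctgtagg
Hnrnpa3: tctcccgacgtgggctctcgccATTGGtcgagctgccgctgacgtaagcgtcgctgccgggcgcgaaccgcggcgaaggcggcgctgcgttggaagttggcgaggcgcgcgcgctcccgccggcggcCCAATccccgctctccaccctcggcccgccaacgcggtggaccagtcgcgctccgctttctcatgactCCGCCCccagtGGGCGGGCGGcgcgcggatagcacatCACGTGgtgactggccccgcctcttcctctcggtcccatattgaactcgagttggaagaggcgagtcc
Hnrnpf: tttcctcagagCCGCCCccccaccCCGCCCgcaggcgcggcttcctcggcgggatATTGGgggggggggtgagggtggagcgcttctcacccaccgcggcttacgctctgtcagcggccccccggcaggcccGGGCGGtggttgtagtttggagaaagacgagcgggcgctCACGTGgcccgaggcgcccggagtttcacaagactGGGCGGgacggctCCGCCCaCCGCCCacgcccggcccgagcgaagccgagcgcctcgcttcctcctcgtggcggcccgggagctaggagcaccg
Snrpa: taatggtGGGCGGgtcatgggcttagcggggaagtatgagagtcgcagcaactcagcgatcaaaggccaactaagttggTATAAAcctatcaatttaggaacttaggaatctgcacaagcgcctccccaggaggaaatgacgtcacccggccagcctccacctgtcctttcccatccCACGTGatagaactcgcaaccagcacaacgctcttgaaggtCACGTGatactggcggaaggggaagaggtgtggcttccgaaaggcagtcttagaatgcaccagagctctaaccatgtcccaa

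The Srsf3 promoter lay wholly under the DMSO peak and partly under the EPZ peak, and the Hnrnpf promoter wholly under both. That of Hnrnpa3 lay under the DMSO peak only, and that of Snrpa under none. The Hnrnpf sequence held 6 GC boxes and the Srsf3 sequence 0, but Srsf3 had a TATAAA match beside a CCAAT match. Over the 49 members with a promoter sequence, using for each gene the start nearest its 5′ end (for Hnrnpf not the one printed), 67.3% held a GC box, beside 66.5% of DMSO-marked genes and 46.3% of all 17492 with a sequence. For CCAAT the shares were 49.0%, 39.5% and 39.2%, for CACGTG 10.2%, 10.5% and 7.91%, and for TATAAA 14.3%, 6.41% and 13.3%. TATAAA was the motif of 7 member promoters, so its share rests on few genes. The members had a median of 25 CG dinucleotides per promoter, against 22 in DMSO-marked genes and 13 in all.

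In vehicle-treated cells nearly all of these genes were marked, with higher median enrichment than marked genes in general. Marked means here that a peak overlapped the annotated gene interval by 1 base or more. Of the 56 genes 53 were marked in DMSO (94.6%, exact 95% interval 85.1 to 98.9, an interval that covers counting of genes only), beside 34.5% of all protein-coding genes. The highest peak of a marked member had a median fold enrichment of 7.10 (interquartile range 5.28 to 8.70), beside 4.47 for all 7563 marked genes. DMSO peaks covered a median of 69.2% of the length of a marked member, beside 23.7% over all marked genes. The members were also shorter, with a median length of 10.4 kb against 23.4 kb.

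The 3 unmarked members were Srsf12, Snrpn and Hnrnpa1l2-ps2, and none of them held a peak in any list. Snrpn is an imprinted gene whose SmN protein replaces SmB in neurons. It spans 468 kb in the annotation on chromosome 7. Hnrnpa1l2-ps2 is listed as protein-coding although its symbol is that of a pseudogene, and its interval is 1.165 kb long.

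**Figure D1:**
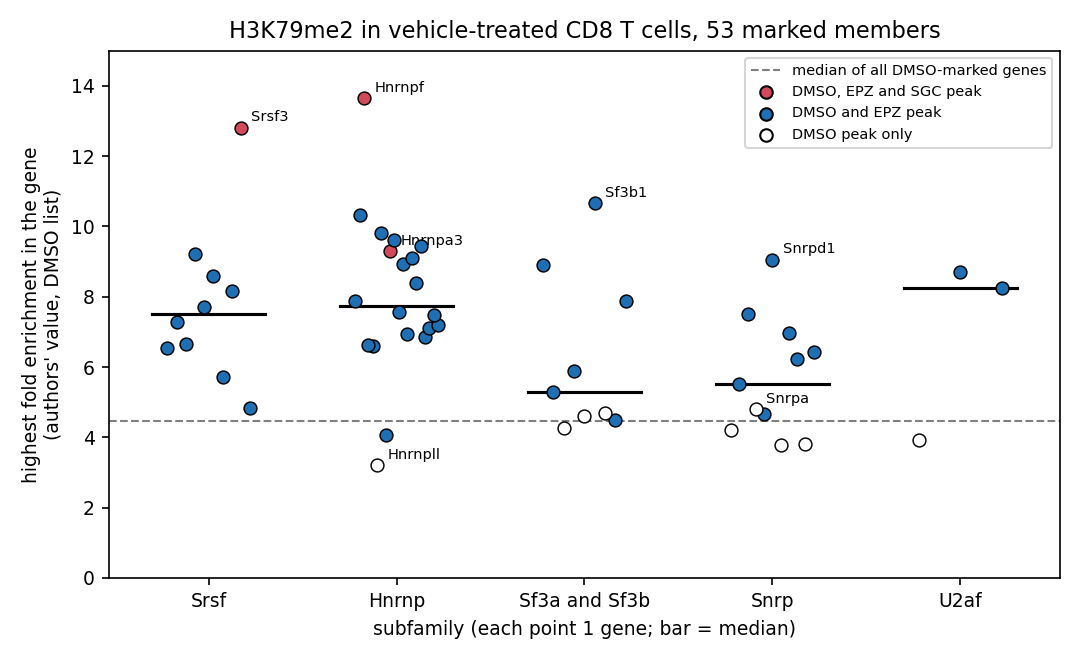
Highest DMSO fold enrichment (authors' value, y axis) of each of the 53 marked members, by subfamily. Bars are medians, the dashed line is the median of all DMSO-marked genes at 4.47, and fill shows in which lists the gene holds a peak. The 9 open points lie at 4.81 or below, and the 3 red points are Srsf3, Hnrnpf and Hnrnpa3.

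Among SR protein genes, 10 of 11 were marked in DMSO and the same 10 held an EPZ peak. Srsf3, which encodes the smallest SR protein, a factor in splicing and mRNA export, stood highest at 12.8-fold, above 99.5% of marked genes. A single DMSO peak of 13.0 kb covered the whole Srsf3 gene (chromosome 17, 29032660 to 29043372). The EPZ list covered 9.42 kb of it with a peak of 30.0-fold, and the SGC list 2.77 kb at 5.11-fold. These fold values cannot be compared between lists. Srsf1, Srsf2, Srsf5 and Srsf10 were likewise covered from end to end in DMSO. Srsf9 had the lowest value of the SR genes, 4.83-fold over 5.06 kb, and kept an EPZ peak of 0.925 kb.

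The share of a gene's DMSO peak bases that also lay under EPZ peaks, called the retained share here, ranged widely within the SR genes. It was 87.9% at Srsf3 and 84.3% at Srsf2, a factor that reads exonic enhancers. At Srsf6 and Srsf9 it was 27.4% and 18.3%. The median over the 10 was 57.1% (interquartile range 46.6 to 69.0). Srsf2 shared its 18.3 kb DMSO peak with Jmjd6, Mettl23 and Mfsd11, and only 20.7% of that peak lay in Srsf2, so its value cannot be given to that gene alone.

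Of the 21 Hnrnp genes 20 were marked in DMSO and 19 held an EPZ peak. Hnrnpf, whose protein binds runs of G in RNA, had the highest value of all members at 13.7-fold. Its DMSO peak covered 23.5 kb of the 25.3 kb gene (chromosome 6, 117900340 to 117925622), and the EPZ peak covered 22.7 kb, a retained share of 96.6%. Hnrnpc, which binds U-rich tracts, had the most DMSO peak bases of any member, 24.3 kb at 9.10-fold, with 16.6 kb under an EPZ peak. Hnrnpa0, a short gene of 2.68 kb, had a retained share of 89.4%. The median retained share over the 19 was 63.7% (51.4 to 68.9).

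Hnrnpll was the exception among the Hnrnp genes. Its protein drives exon skipping in the CD45 transcript of activated T cells. Hnrnpll held 1 DMSO peak of 5.70 kb at 3.21-fold, the lowest fold enrichment of any marked member, in a gene of 32.8 kb (chromosome 17, 80029487 to 80062268), and no EPZ or SGC peak. Its close relative Hnrnpl, which also acts on CD45, had an 11.5 kb DMSO peak at 10.3-fold and kept 69.4% of its DMSO peak bases. Hnrnph2, on the X chromosome, was the next lowest Hnrnp gene at 4.05-fold and kept a 0.696 kb EPZ peak, a retained share of 21.9%, whereas Hnrnph1 stood at 7.89-fold with 65.1% and Hnrnph3 at 7.10-fold with 53.2%.

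Hnrnpa1 and Hnrnpa2b1 each shared a DMSO peak with a heterochromatin protein 1 gene that lies upstream of it. The promoter region between Hnrnpa2b1 and Cbx3 is known as a ubiquitous chromatin opening element. There the DMSO peak of 17.3 kb had a value of 9.81, and 1 EPZ peak of 14.6-fold ran from 5.99 kb before to 6.12 kb after the Hnrnpa2b1 start, so that it lay over parts of both genes. At Hnrnpa1 and Cbx5 the DMSO peak was wider, 32.0 kb at 6.87-fold, and carried 4 separate EPZ peaks over 11.4 kb of it. The EPZ peak in Hnrnpa1 itself ran from 0.312 to 3.29 kb after its start. In all, the highest DMSO peak of 20 of the 53 marked members also covered another protein-coding gene (37.7%, beside 23% of all marked genes).

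All 9 genes with Sf3a or Sf3b symbols, for subunits of the SF3A and SF3B complexes, were marked in DMSO and 6 held an EPZ peak. Sf3b1, the subunit that clamps the branch point helix, stood first at 10.7-fold, with 21.1 kb of DMSO and 9.50 kb of EPZ peaks in the gene. Sf3b4 had a value of 8.89 and Sf3a2 one of 7.89. The Sf3a2 peak, 8.41 kb long, also reached into its neighbours Dot1l and Plekhj1, with 51.1% of it in Sf3a2. Without an EPZ peak were Sf3a1 at 4.27-fold, Sf3a3 at 4.70 and Sf3b5 at 4.60. The Sf3a1 peak was 7.37 kb long, the longest DMSO peak among members that held none in EPZ, and the Sf3b5 gene is only 0.734 kb long. Sf3b3 had 4 DMSO peaks over 20.4 kb, and its 1 EPZ peak covered 18.6% of those bases.

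The Snrp genes were marked in 11 of 12 cases and 7 of these held an EPZ peak. Of the Sm ring genes 7 were marked (Snrpb, Snrpd1, Snrpd2, Snrpd3, Snrpe, Snrpf and Snrpg), and all but Snrpd2, at 4.21-fold, held an EPZ peak. Snrpd1 was the highest at 9.06-fold with a retained share of 73.0%, and Snrpg kept 78.2%. Snrpd3 had the most DMSO bases of this family, 15.3 kb at 4.66-fold, but kept 18.1%, the least of any member with peaks in both lists. The 4 genes with Snrp symbols for proteins specific to the U1 or U2 particle differed from the ring in these counts. Snrpa at 4.81 and Snrpc at 3.79, for the U1 proteins A and C, had no EPZ peak, nor had Snrpb2, for a U2 protein, at 3.81. Snrpa1, for the other U2 protein, stood at 6.24 and did, with an EPZ peak whose −log10 q was 3.77. With only peaks of a −log10 q of at least 5, Snrpa1 had no EPZ peak, and Snrpb2 and Snrpc had no DMSO peak. The split covers Snrp symbols only. Snrnp70, for another U1 protein, stood at 8.45 in DMSO and held an EPZ peak. Of the 9 Sf3a and Sf3b genes, also of the U2 particle, 6 held one. The split was made after the values were seen, with 4 genes on 1 side, and was not tested.

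Both core subunits of U2AF were marked and kept EPZ peaks. U2af1, which contacts the AG of the 3' splice site, had a value of 8.70 and a retained share of 39.4%. U2af2, which binds the polypyrimidine tract, had 8.24 and 43.1%, with its EPZ signal in 2 peaks. U2af1l4, a paralog of U2af1, touched 0.940 kb of a 3.10 kb DMSO peak of 3.93-fold that also covered Igflr1, and held no EPZ peak.

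**Figure D2:**
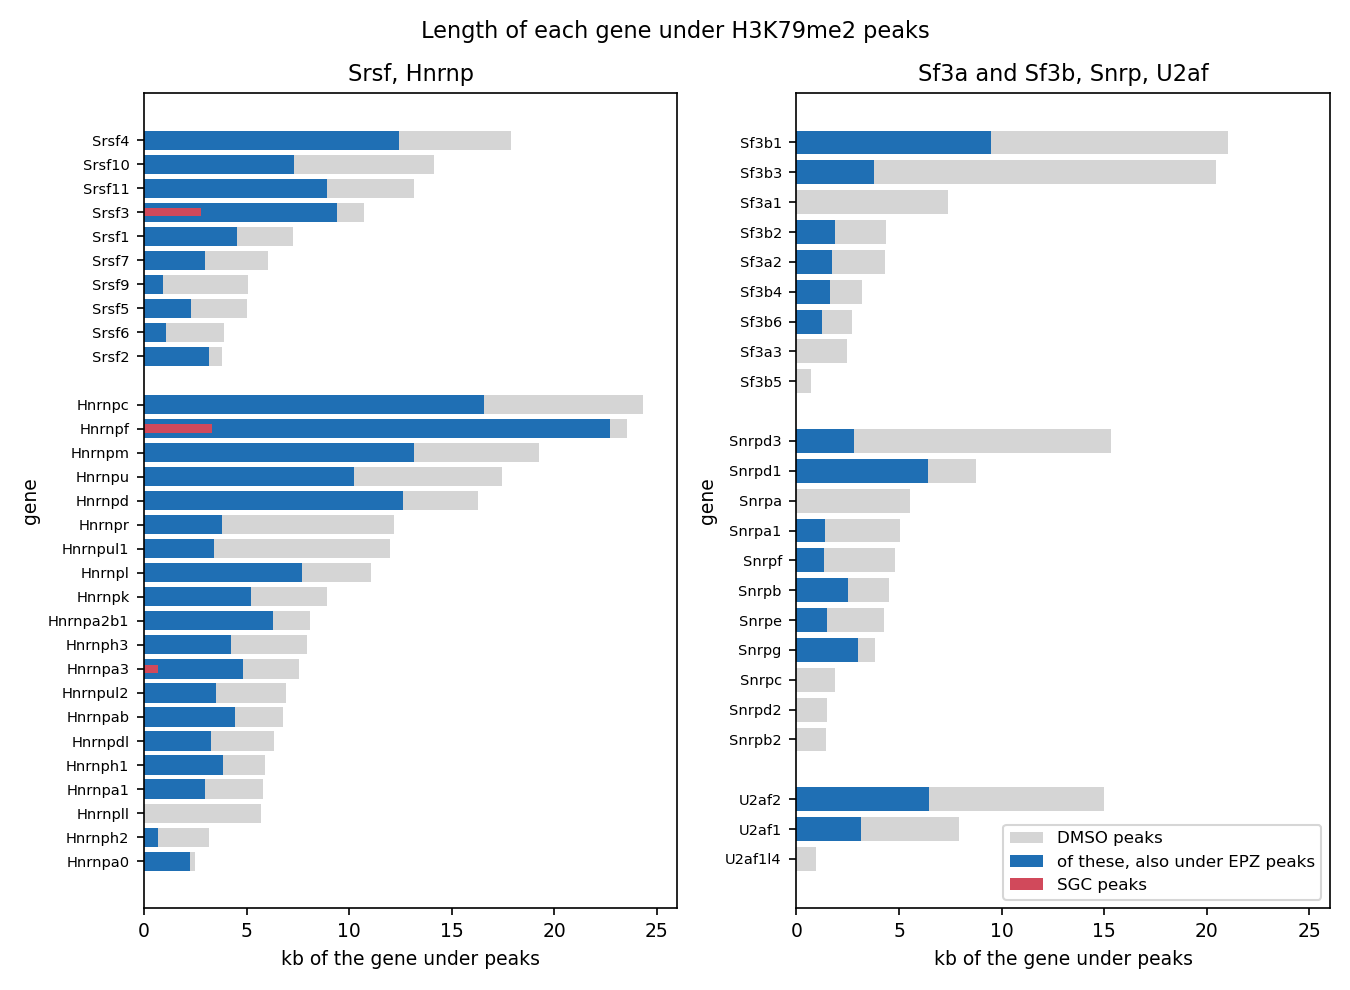
Kilobases of each marked member under DMSO peaks (grey), the part of these also under EPZ peaks (blue) and the length under SGC peaks (red). Hnrnpf kept 22.7 of 23.5 kb, Snrpd3 2.78 of 15.3 kb, and the 9 members without blue held no EPZ peak.

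Set side by side, the Srsf and Hnrnp genes had higher medians than the genes of the core particles. The median DMSO fold enrichment was 7.50 in Srsf and 7.73 in Hnrnp genes, against 5.28 in Sf3a and Sf3b and 5.53 in Snrp genes. Of the 3 U2af genes the middle value was 8.24. Among Srsf and Hnrnp genes together, 29 of 30 marked members held an EPZ peak (96.7%, exact 95% interval 82.8 to 99.9). Among Sf3a, Sf3b, Snrp and U2af genes the count was 15 of 23 (65.2%, 42.7 to 83.6). Over all DMSO-marked genes the share was 46.1%, below both groups. Summed over genes, EPZ peaks covered 61.9% of 298.6 kb of DMSO peaks in the first group and 32.8% of 147.4 kb in the second, beside 26.6% over all DMSO-marked genes. The highest DMSO peak also covered another protein-coding gene in 15 of the 30 marked Srsf and Hnrnp genes and in 5 of the other 23. Genes of a family are not replicates and some share a peak, so the EPZ shares describe the genes and were not tested.

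With EPZ-5676, 44 of the 53 DMSO-marked members held a peak (83.0%, 70.2 to 91.9), beside 46.1% of all DMSO-marked genes and 15.9% of all protein-coding genes. No member held an EPZ peak without a DMSO peak, and neither did any other of the 3486 EPZ-marked protein-coding genes. The 9 DMSO-marked members without an EPZ peak were Hnrnpll, Sf3a1, Sf3a3, Sf3b5, Snrpa, Snrpb2, Snrpc, Snrpd2 and U2af1l4. With only peaks of a −log10 q of at least 5, 7 of these 9 had no DMSO mark, all but Sf3a3 and Snrpa, and the DMSO-marked members without an EPZ peak were Hnrnpr, Sf3a3, Sf3b2, Sf3b6, Snrpa and Snrpa1. The EPZ list covered none of the highest DMSO peaks of these 9, inside the gene or outside it. They were among the weakly marked members: their DMSO values ran from 3.21 to 4.81 with a median of 4.21, against 4.05 to 13.7 and a median of 7.54 for the 44. Of the 12 members at or below 4.81-fold, a bound taken from these 9, 3 held an EPZ peak (Hnrnph2, Sf3b6 and Snrpd3). Over all DMSO-marked genes at or below it the share was 15.5% of 4313. The DMSO peaks of the 9 were also shorter, with a median of 1.86 kb in the gene against 7.41 kb for the 44.

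DMSO fold enrichment moved with the EPZ count in all genes, and its part in the members' count was not tested. The 7563 DMSO-marked genes were ordered by their highest value and divided into 10 bins of equal size. In the 3 highest bins, from 5.60-fold up, 38 of 38 members and 91.1% of 2269 genes held an EPZ peak. Bins 6 and 7, from 4.47 to 5.60, gave 5 of 8 members and 68.5% of genes. In the 5 lowest the counts were 1 of 7 members, Hnrnph2, and 10.2% of genes. The members were concentrated at the top, with 34 of 53 (64.2%) in the 2 highest bins. Of the 30 marked Srsf and Hnrnp genes 26 lay there, and of the other 23 members 8.

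Over all members with peaks in both lists the median retained share was 51.7% (interquartile range 40.1 to 68.2), beside 34.3% for all such genes. Within the highest bin the medians were 64.4% for 20 members and 66.1% for all genes, and within bin 9 they were 58.4% for 14 members and 48.9% for all. In bins 6, 7 and 8, which held 3, 2 and 4 members with an EPZ peak, the members' medians were 18.3%, 39.3% and 27.7%, beside 15.9%, 23.6% and 32.3% for all genes. Among bins 6 to 10 the members stood above all genes in 6, 7 and 9 and below them in 8 and 10. With only peaks of a −log10 q of at least 5 in every list, the medians were 54.1% for 39 members and 52.7% for all genes.

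**Figure D3:**
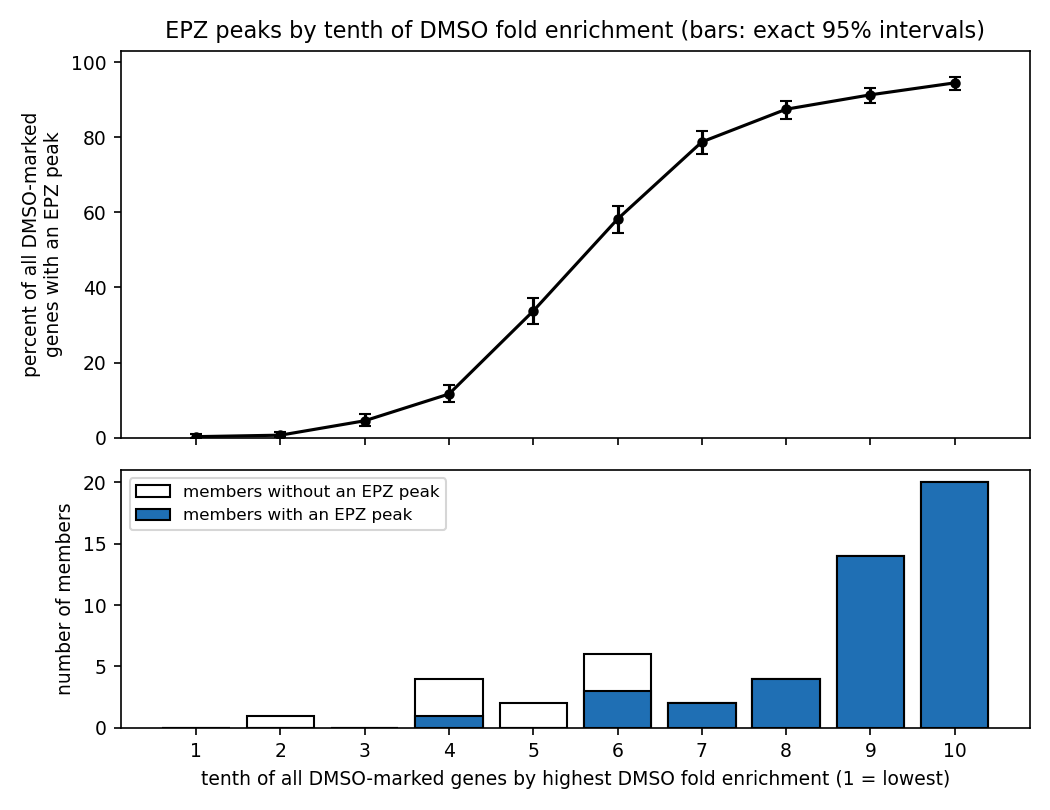
Upper panel, percent of all DMSO-marked genes with an EPZ peak in each of 10 equal bins of highest DMSO fold enrichment (exact 95% intervals); lower panel, number of members in each bin, filled where they held an EPZ peak. Members gather in the 2 highest bins, where all 34 held one.

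Along the gene, the median DMSO peak of the members began close to the annotated start and the median EPZ peak a little inside it. Strand and start came from the RefSeq promoter table and were found for 49 of the 56 members, 46 of them marked in DMSO. Hnrnpll, Hnrnpul2, Sf3b4, Sf3b5, Snrpb, Snrpd1 and U2af2 had no entry. The highest DMSO peak of the 46 began at a median of -0.0865 kb from the start (negative is upstream) and ended at a median of 7.12 kb after it. Of the 46, 16 began more than 1 kb upstream, the furthest at -26.7 kb (Hnrnpa1). For the 39 with an EPZ peak, the highest EPZ peak began at a median of 0.298 kb after the start and ended at 3.81 kb after it, with 4 beginning more than 1 kb upstream. The start itself lay under a DMSO peak in 30 of the 46 (65.2%) and under an EPZ peak in 10 (21.7%). At 1.25 kb after the start all 46 lay under a DMSO peak and 39 under an EPZ peak (84.8%). Over all DMSO-marked genes with a strand the start lay under a DMSO peak in 38.8% and under an EPZ peak in 8.20%, and the position at 1.25 kb in 81.4% and 34.3%.

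EPZ peaks, like DMSO peaks, ended further past the start in Srsf and Hnrnp genes than in the others, by medians that were not tested. Peak ends were not cut at the end of the gene. The highest EPZ peak ended at a median of 4.05 kb after the start in 10 Srsf and 4.88 kb in 18 Hnrnp genes. In 5 Sf3a and Sf3b genes the median was 2.07 kb and in 5 Snrp genes 1.91 kb. The highest DMSO peak ended at medians of 10.5 kb in 10 Srsf and 7.94 kb in 18 Hnrnp genes. In 7 Sf3a and Sf3b genes and 9 Snrp genes its medians were 4.295 and 3.853 kb. Some of these ends lay beyond the gene, so they are not all reach into it. The marked Srsf genes had a median length of 7.27 kb, and the Srsf2 peak ended at 15.6 kb in a gene of 3.78 kb. Over the members with a strand, EPZ peaks covered 70.0% of the DMSO peak bases in the first 2 kb of the gene, 65.7% from 2 to 5 kb, 51.0% from 5 to 10 kb and 29.3% beyond. The corresponding shares over all genes were 37.0%, 34.9%, 27.7% and 19.9%. In the 9 marked Snrp genes with a strand the retained bases were all in the first 5 kb, at 50.9% and then 13.3%, with 0 of 8.27 kb kept from 5 to 10 kb. Snrpd1 has no strand in the table and is not counted there; its EPZ peak covered 6.395 kb of the gene. Hnrnp genes kept 78.4% in the first 2 kb, 90.3% from 2 to 5 kb, 58.2% from 5 to 10 kb and 43.7% beyond, and the last value was 29.5% without Hnrnpf.

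**Figure D4:**
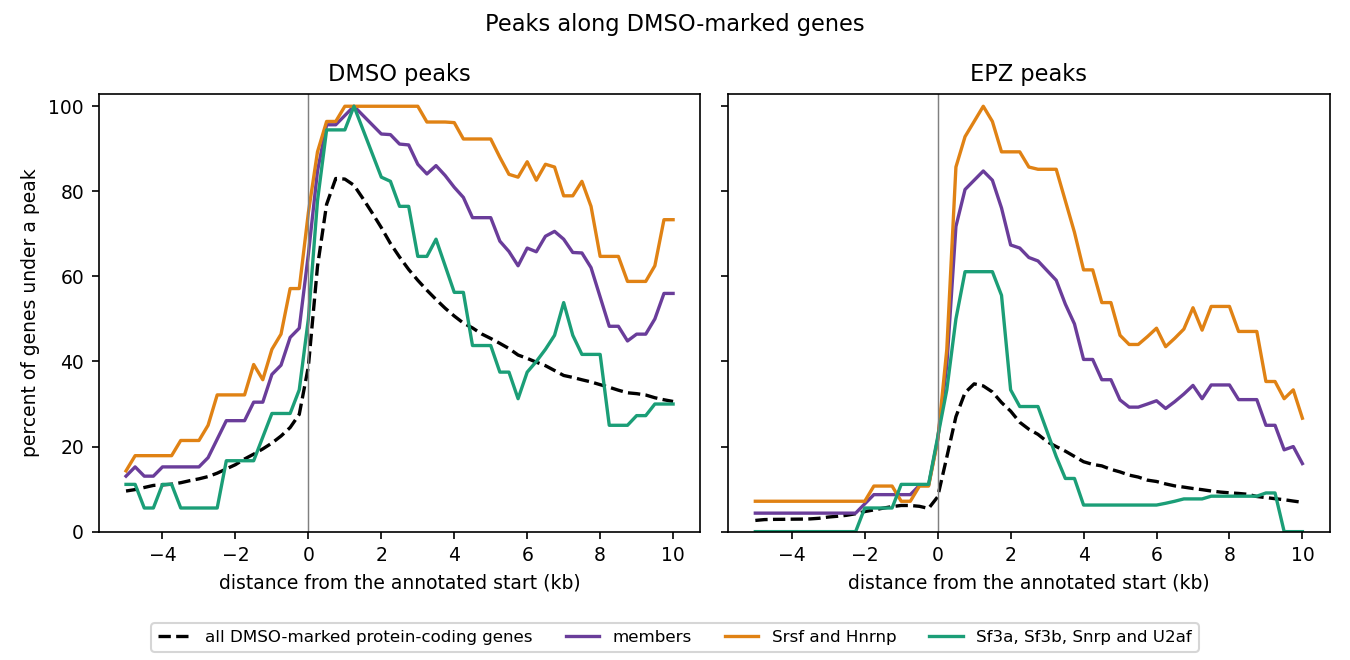
Percent of DMSO-marked genes under a DMSO peak (left) or an EPZ peak (right) at each distance from the annotated start, for the 46 marked members with a strand, their 2 groups of subfamilies and all DMSO-marked genes. Genes shorter than a distance are left out at it. At 5 kb, EPZ peaks lay over 46.2% of Srsf and Hnrnp genes, 6.25% of the other members and 14.0% of all genes. DMSO peaks lay over 92.3%, 43.75% and 45.4% of them there.

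In several long members the EPZ peak ended far short of the DMSO peaks. Sf3b1 had a DMSO peak from 1.09 kb before to 20.0 kb after its start and 2 short ones further on. The short ones were weak, with a −log10 q of 1.07 and 2.40. The Sf3b1 EPZ peak ended at 9.48 kb. At Snrpd3 the DMSO peak ran to 15.3 kb and the EPZ peak to 2.78 kb. Hnrnpul1 had 4 DMSO peaks, the last ending 26.8 kb from the start, and 1 EPZ peak that ended at 3.71 kb. Its highest DMSO peak ended at 8.57 kb, and the DMSO peaks beyond that were weak, with a −log10 q of 1.02 to 1.90. A second EPZ peak was called in Srsf10, Hnrnpm, Hnrnpu and U2af2. At Hnrnpu, a nuclear scaffold protein gene, the first ran from 0.026 to 8.94 kb and the second from 10.3 to 11.6 kb. The second EPZ peak of Srsf10 lay at its far end and continued past the gene, within the DMSO peak it shares with Pnrc2.

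**Figure D5:**
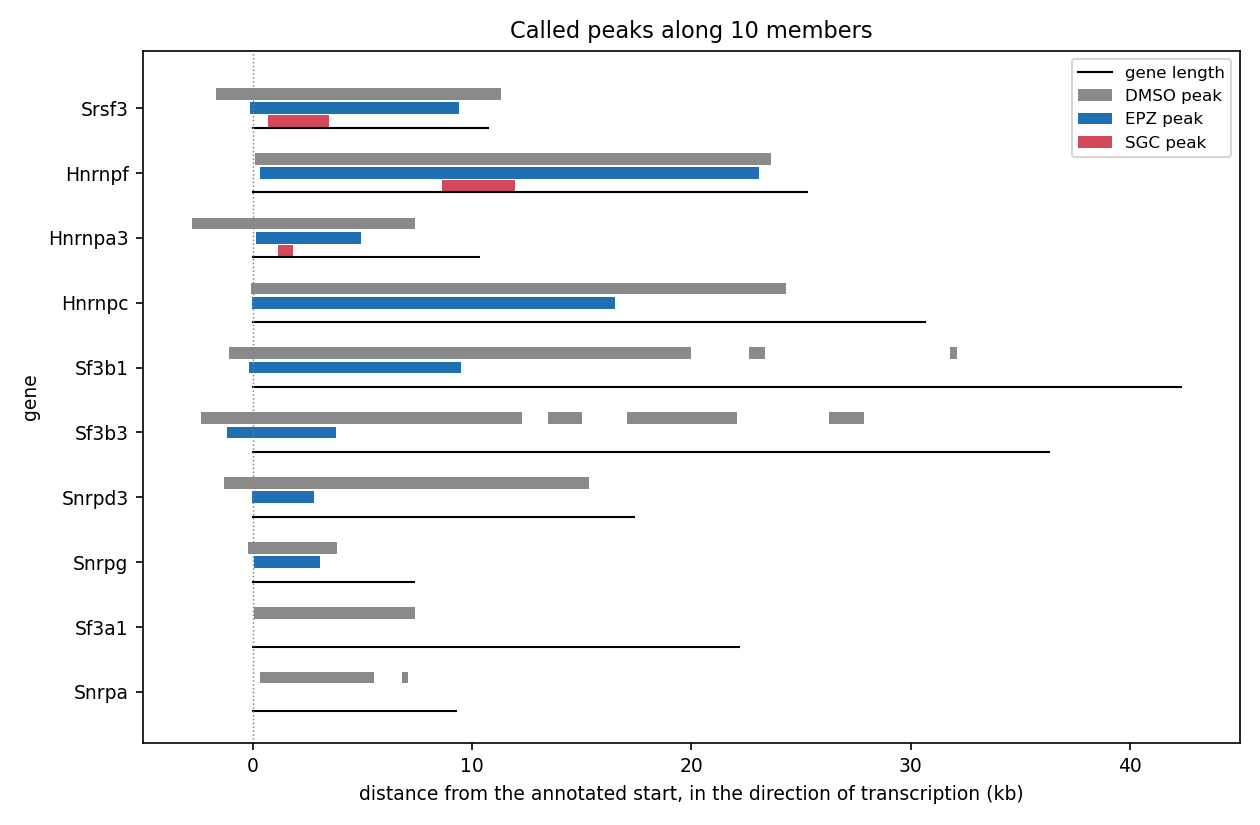
Called DMSO (grey), EPZ (blue) and SGC (red) peaks of 10 members by distance from the annotated start in the direction of transcription, with the gene as a black line. The EPZ peak of Hnrnpf spans nearly the whole DMSO peak, that of Snrpd3 only its first part, and Sf3a1 and Snrpa have none.

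With SGC-0946, 3 members held a peak, namely Srsf3, Hnrnpf and Hnrnpa3, that is 5.66% of the 53 DMSO-marked members (exact 95% interval 1.18 to 15.7), beside 0.41% of all DMSO-marked genes and 0.142% of all protein-coding genes. Among EPZ-marked genes 0.889% held an SGC peak. All 3 members also held EPZ peaks, as did all 31 protein-coding genes with an SGC peak. The 3 members stood in the highest bin of DMSO fold enrichment, which held 29 of those 31 genes. The SGC peak of Srsf3 was 2.77 kb long at 5.11-fold, that of Hnrnpf 3.33 kb at 4.25-fold and that of Hnrnpa3 0.698 kb at 3.62-fold. Hnrnpa3 had values of 9.31 in the DMSO and 17.9 in the EPZ list, each to be read inside its own list only. No Sf3a, Sf3b, Snrp or U2af gene held one. EPZ-5676 and SGC-0946, given at the same labelled dose and read on the same day, gave called peaks in 44 and 3 members. Called length over the members was 233.1 kb with EPZ-5676 and 6.80 kb with SGC-0946, beside 446.0 kb in DMSO. Over all protein-coding genes it was 17520.8 kb with EPZ-5676 and 109.2 kb with SGC-0946, beside 65879.7 kb in DMSO.

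Other genes of the pathway, listed by function and outside the symbols above, were counted in the same way. Of all protein-coding genes 34.5% were marked in DMSO, with a median of 4.47-fold. Of these marked genes 46.1% held an EPZ peak and 0.41% an SGC peak, so an SGC count of 0 in lists of this size lies near that share. Of 72 other spliceosome components, 68 were marked in DMSO (94.4%), with a median of 5.41-fold, 45 of these held an EPZ peak (66.2%) and 0 an SGC peak. Those without a DMSO peak were Snrnp25, Prpf40b, Cwc27 and Htatsf1. Of 40 other splicing regulators, 39 were marked, with a median of 7.12-fold, and 34 held an EPZ peak (87.2%), again with 0 in the SGC list. The unmarked one was Rbfox2, a factor best known from muscle and brain. The spliceosome list thus stood below the regulator list, the order of the 2 pooled groups of members. Within the members U2af genes went the other way, with the highest subfamily median, 8.24-fold. Whether the 2 lists differ was not tested. Examples in the regulator list, chosen after their values were seen, were Tra2b, an SR-like protein gene, at 10.4-fold in DMSO and 23.9-fold in its own EPZ list, and Magoh and Rbm8a, subunits of the exon junction complex, at 4.43 and 3.91 without an EPZ peak.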

How the data were processed

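H3K79me2 ChIP-seq was read from 3 deposited peak lists, 1 per treatment. MACS2 2.2.7.1 is listed in the submitters' processing notes, which also list Picard and the aligner BWA 0.7.17-r1188, with the builds mm10 (GRCm38) and sacCer3. Not given in the sources used here are the handling of replicates, inputs and yeast reads, and the calling thresholds. The deposited fold enrichment is the authors' ratio over background, the deposited −log10 q is the authors' average over a peak, and the deposited score was not used.

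Peaks were placed on RefSeq gene intervals (GRCm38.p6) with Python 3.11.15 and pandas 2.3.3, after the overlap code was tested on simulated intervals. Shares have exact (Clopper-Pearson) 95% intervals. Depth is unknown, so weak peaks may go uncalled. Alternatives were an overlap of at least 500 bases, a −log10 q of at least 5, each peak given to the gene it overlaps most, the first 5 kb of the gene, and leaving out genes whose highest peak is shared.

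Members and gene lists were chosen with earlier results of these data known. Values are given for unmarked members, those without an EPZ peak, those with an SGC peak, the highest and lowest DMSO value of each subfamily, the 5 highest and 5 lowest retained shares and the 5 with most DMSO bases. Other members named were chosen after their values were seen. SGC promoters were taken at the start nearest before the peak.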

Additional observations from a re-analysis of the deposited data

How the results depend on the processing

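Of 47 recomputed values 41 stayed within the 95% interval of the value reported or, for a count, changed by at most 1.5 times. Members marked in DMSO that held an EPZ peak made up 78.8% to 86.7% over the 6 alternatives, beside 44.1% to 46.6% of all genes. Leaving out members whose highest DMSO peak covers another gene reduced the marked members to 33 and those with an EPZ peak to 26 by construction, and U2af genes then stood at 100% (2 of 2). With peaks of a −log10 q of 5 or more, 1 member, Srsf3, held an SGC peak; this setting also brought the median retained share of all genes to that of the members (52.7% and 54.1%) and put U2af genes at 100%. With genes of known strand only, a setting added after seeing the data, Hnrnp genes stood at 100% (18 of 18), because Hnrnpll has no strand. The members without an EPZ peak also depended on the −log10 q: of the 9 reported, Sf3a3 and Snrpa remained at 5 or more. In the first 5 kb Hnrnpf had no SGC peak. No paired analysis was possible because each deposited list holds no separate replicates, and for the same reason no replicate could be left out.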
